A study of Homo sapiens with 12 samples.

Results

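The 6 input libraries of an AlkAniline-Seq experiment on METTL1 knockdown were compared, 3 from cells with shMETTL1 and 3 from cells with shscramble, out of 12 libraries in the series. All cells were LNCaP-AI, a line of castration-resistant prostate cancer related to LNCaP and kept under androgen deprivation in both groups. According to the series' design text they carried the shMETTL1 or the shscramble construct stably, from a lentiviral vector. The study's methods give 1 hairpin against METTL1. All 6 libraries were identified as input by their column labels, and each group held replicates 1, 2 and 3. The study's statistics section states 3 biological replicates for all its data, without describing those of the sequencing. Nothing in the labels states that replicates were separate cultures, so p-values measure only the spread between these libraries, which may be technical.

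METTL1 is a methyltransferase that works with WDR4 and places N7-methylguanosine (m7G) in tRNA and at internal sites of mRNA. In AlkAniline-Seq the RNA backbone is cut chemically at m7G, and adapters are ligated to the cut ends. An input library is made without that cleavage, so the number of its reads that belong to a gene is a measure of transcript level, and the points where its reads end are the background of ends that exist without the chemistry. The deposited values give, at each position, the count of reads ending there and the coverage, the reads that span it.

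The hairpin is shown because it is the only agent that separates the groups. Its sense stem was 21 bases long, joined to its antisense copy by a loop of 4 bases, in an insert of 46 bases.
shMETTL1 stem: ggaatgtagtccatctaaact

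The level of METTL1 itself could not be checked. The deposited tables name genes by Ensembl ID, and 0 of the 59792 genes in the RefSeq table used here carried one, so METTL1, WDR4, CDK14 and all 6 lists of cell type markers (luminal, basal, neuroendocrine, fibroblast, immune and endothelial) could not be looked up. Symbols were available for 115 genes, whose m7G fold in the study's supplementary table of genes was found at exactly 1 position. These genes were picked by the study for a change of mRNA and m7G in the same cells, partly with these libraries, so the direction of any group of them is not independent evidence.

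The input libraries were alike in depth and unlike in how that depth was spread. Their counts summed to between 2783709 and 3258499. A pair of libraries stood apart, shscramble replicate 2 and shMETTL1 replicate 1. Shscramble replicate 2 had reads in 13120 gene IDs and shMETTL1 replicate 1 in 16231, and the other 4 libraries had reads in 14893 to 15117. In shscramble replicate 2, 57.7% of the positions with a read had exactly 1, against 25.9% to 32.0% in the other 5 libraries. A share of 50% of its reads lay at 2108 positions, and in shMETTL1 replicate 1 the same share took 17607 positions, with 6102 to 8601 in the others.

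**Figure D1:**
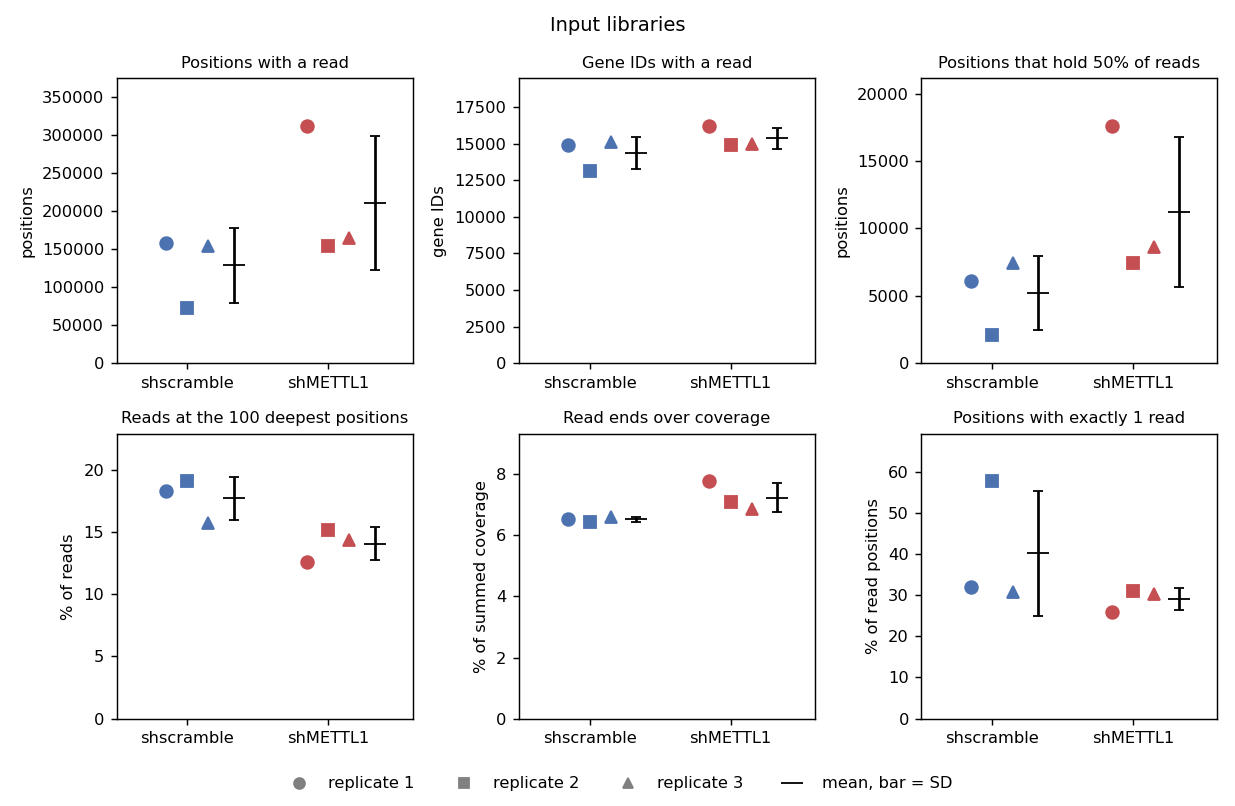
Each of 6 properties of the input libraries on its own vertical axis, starting at 0, for shscramble (blue) and shMETTL1 (red). Symbols are replicates 1 to 3 and black bars are the mean and SD. Shscramble replicate 2 lies lowest and shMETTL1 replicate 1 highest in positions that hold 50% of reads, at 2108 and 17607.

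The same libraries stood apart in which positions they read. Positions where shMETTL1 replicate 1 held at least 50 reads were looked up in the others, and 94.3% to 96.0% had a read in shscramble replicates 1 and 3 and shMETTL1 replicates 2 and 3, and 82.5% in shscramble replicate 2. Among pairs without shMETTL1 replicate 1 the corresponding share lay between 50.9% and 75.9%. ShMETTL1 replicate 1 alone read 176998 of the 643405 positions read in any input library. The source of this was not tested, and library and gene values that moved by over 1.5 times without these libraries are given both ways.

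**Figure D2:**
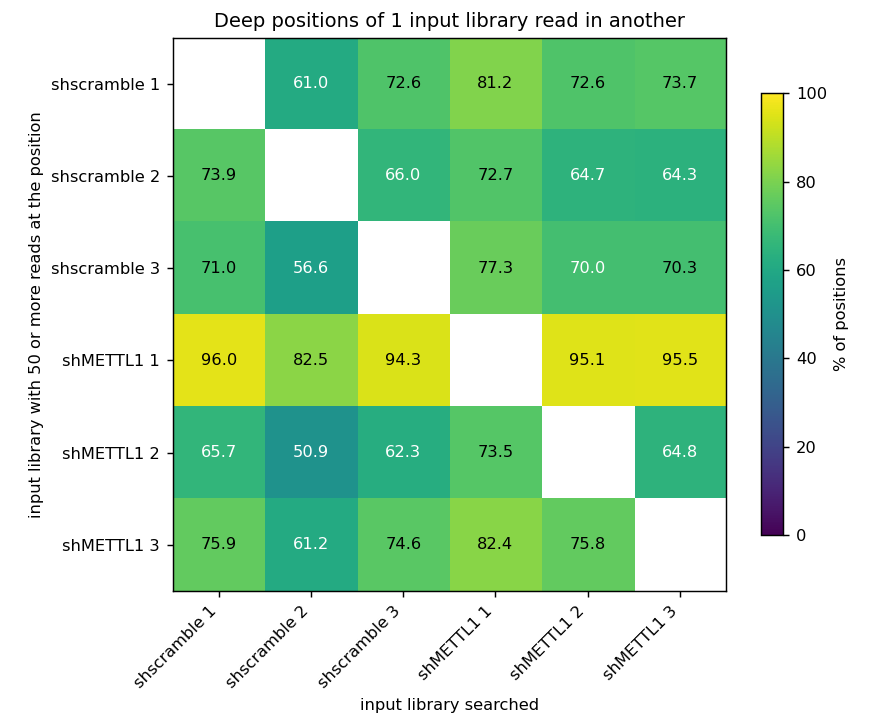
For positions holding at least 50 reads in 1 input library (vertical axis), the percent also read by a different one (horizontal axis). The row of shMETTL1 replicate 1 holds 82.5% to 96.0%, and no pair without that library exceeds 75.9%.

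Few read ends recurred. Of the positions read in any input library, 448743, or 69.7%, had reads from a single library, while all 6 libraries shared 12816. Those 12816 lay in 4331 gene IDs and held 47.0% to 57.4% of the reads of the shscramble libraries and 40.0% to 46.3% of those of the shMETTL1 libraries (exact two-sided permutation test, p = 0.1, the smallest that 3 against 3 allow). The difference in means was -7.85 percentage points. The highest and the lowest of these shares belonged to the libraries that stood apart, and without them the difference was -3.07 points (48.6% against 45.5%). At these shared positions, reads ending there made up 13.4% ± 0.57 of the coverage in shscramble and 13.7% ± 0.48 in shMETTL1 (SD, n = 3, exact permutation test, p = 0.6). The groups overlapped there, and the difference was 0.237 points, or 0.112 without the libraries that stood apart.

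Over all positions, reads ending there made up 6.53% ± 0.085 of the coverage in shscramble and 7.23% ± 0.47 in shMETTL1 (SD, n = 3, exact permutation test, p = 0.1). The groups did not overlap, and the difference was 0.705 points, or 0.394 without the libraries that stood apart. The 100 deepest positions took 18.3%, 19.1% and 15.7% of the reads of the shscramble libraries and 12.6%, 15.2% and 14.3% of the shMETTL1 libraries. The shMETTL1 libraries were all lower, by a difference of -3.65 percentage points (exact two-sided permutation test, p = 0.1). Without shscramble replicate 2 and shMETTL1 replicate 1 the difference was -2.24 points, where 2 against 2 allow no p under 0.333. At positions with a coverage of at least 20, reads ending there were 6.15%, 6.28% and 6.11% of the coverage in shscramble and 6.36%, 6.59% and 6.32% in shMETTL1. Again the groups did not overlap (exact permutation test, p = 0.1), and the difference was 0.248 points.

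The number of positions with a read was lowest in shscramble replicate 2 (72098) and highest in shMETTL1 replicate 1 (311979). It was 128326 ± 48736 in shscramble and 210308 ± 88230 in shMETTL1 (SD, n = 3, exact permutation test, p = 0.3). Without those libraries the means were 156440 and 159472. They were set apart for their breadth, so leaving them out had to narrow this difference. Positions read in all 3 shMETTL1 libraries and in no shscramble library numbered 4351, against 781 the other way. With shMETTL1 replicates 2 and 3 against shscramble replicates 1 and 3 alone, they numbered 12445 and 11506.

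No single position passed a test of its share of read ends. The log2 odds of ending at a position, given its coverage, were compared with limma at 46568 positions with a coverage of at least 20 in every library, and 0 passed in either direction (0.0% higher and 0.0% lower). At an unadjusted p under 0.05, 2042 positions were higher (4.38%) and 356 lower (0.764%). Without the libraries that stood apart these were 998 (2.23%) and 913 (2.04%). Library medians of the log2 odds in shscramble were -6.97, -8.48 and -6.91, and those in shMETTL1 -5.44, -6.99 and -6.81. The lowest and the highest of the 6 were shscramble replicate 2 and shMETTL1 replicate 1, so leaving both out favours a smaller difference. The median difference over positions was 0.78 with all libraries, 0.38 without shMETTL1 replicate 1, 0.49 without shscramble replicate 2 and 0.03 without both.

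Reads at single positions gave a similar result. EdgeR called 0 of 20840 positions (0.0% in each direction), and at an unadjusted p under 0.05 found 559 higher (2.68%) and 610 lower (2.93%). That balance moved with the setting, to 596 and 224 when scaled by library size alone, 414 and 720 at positions read in all 6 libraries, and 1174 and 1168 without the libraries that stood apart. DESeq2 called 57 higher (0.274%) and 40 lower (0.192%). The smallest p below 0 belonged to the position with the most input reads, in a gene without a symbol here. It held 130788, 82697 and 82486 reads in shscramble and 87289, 70060 and 60976 in shMETTL1. The groups overlapped in reads, and the log2 fold change after scaling was -0.61 (standard error, SE, 0.13, edgeR adjusted p = 0.50). The 3 positions of smallest p above 0 had no read in any shscramble library and 13 to 136 in each shMETTL1 library.

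The second deepest position lay in SLC7A5, the light chain of the amino acid transporter LAT1. It had 20953, 51509 and 32757 reads in shscramble and 15295, 48099 and 36414 in shMETTL1. The replicates of a group differed more than the groups. This position held 78.7% to 90.1% of the gene's reads, so a level of SLC7A5 from these libraries is largely the level of 1 read end. Its other positions together had 2727, 5630 and 4481 reads against 4146, 8020 and 5906. Among tested gene IDs the deepest position held a median of 23.8% of a gene's reads.

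At the level of genes no change passed. Counts were summed per gene ID and compared with edgeR's quasi-likelihood test, and at a Benjamini-Hochberg adjusted p of 0.05 0 of 11740 gene IDs were called (0.0% higher, 0.0% lower). At an unadjusted p under 0.05, 193 were higher (1.64%) and 542 lower (4.62%). More were lower only under some settings. The counts were 294 higher and 181 lower when scaled by library size alone, 335 and 299 with limma, 459 and 431 without shscramble replicate 2, and 347 and 426 without both libraries that stood apart. The coefficient of variation between replicates was estimated at 0.81. DESeq2 called 15 higher (0.128%) and 20 lower (0.17%). In bulk libraries, fewer cells with a transcript and less of it per cell cannot be told apart.

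**Figure D3:**
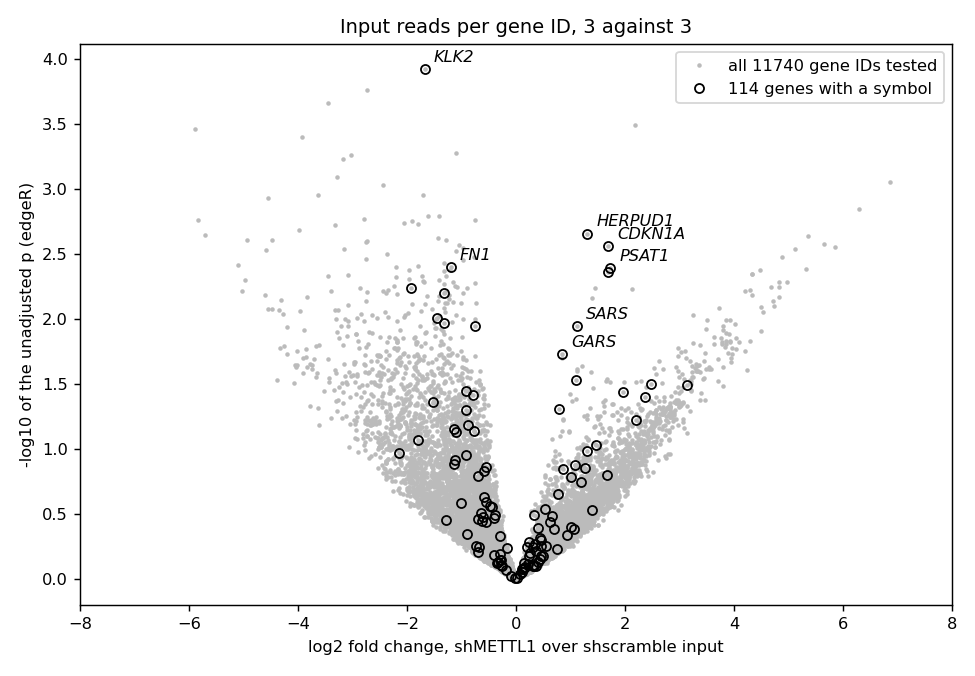
Log2 fold change of input reads (horizontal axis) against -log10 of the unadjusted p from edgeR (vertical axis), for 11740 gene IDs (grey) and the 114 tested genes with a symbol (black circles). KLK2 lies highest of all points.

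KLK2 had the smallest p of all 11740 gene IDs. It encodes a kallikrein-related serine protease of the prostate and is a classical target of the androgen receptor. It had 4445, 3541 and 2591 input reads in shscramble against 1771, 1508 and 1017 in shMETTL1. Every shMETTL1 library was below every shscramble library. After TMM scaling it was at 1318 ± 473 CPM (counts scaled to a common library size) in shscramble and 413 ± 66.8 in shMETTL1 (SD, n = 3), which is a log2 fold change of -1.68 (SE 0.34, edgeR unadjusted p = 0.00012, adjusted p = 0.75).

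The lower count of KLK2 was seen at more than 1 read end. Its deepest position had 2295, 1480 and 860 reads against 779, 584 and 245. The rest of the gene had 2150, 2061 and 1731 against 992, 924 and 772, so both parts were lower in every shMETTL1 library. When each position with a read was counted once per library, which removes the weight of piled reads, KLK2 had 81, 30 and 74 positions against 79, 52 and 44. These counts moved with library breadth and overlapped. Scaled to the libraries' breadth, KLK2 fell by 0.80 on the log2 scale (SE 0.15, edgeR adjusted p = 0.0026). In that test 4 of 5608 gene IDs were higher (0.0713%) and 3 lower (0.0535%). The fold change stayed near that size while the call did not always hold. It was -0.68 without shMETTL1 replicate 1 (adjusted p = 0.083), -0.79 without shscramble replicate 3 (0.059) and -0.72 without both libraries that stood apart (0.16). Without shscramble replicate 2 it was -0.84 and the call held (adjusted p = 0.0018). DESeq2 on distinct positions of all 6 libraries gave KLK2 an adjusted p of 0.999 and called 0 gene IDs. The edgeR fit of distinct positions estimated a coefficient of variation between replicates of 0.0099, against 0.81 for reads.

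The other androgen receptor targets with a symbol did not share a direction. NDRG1, a stress-responsive gene that androgen induces, had 68, 8 and 82 reads against 116, 65 and 42, a log2 fold change of 0.30 (SE 1.13), and -0.51 without the libraries that stood apart. PPAP2A, a lipid phosphatase, had 222, 798 and 317 against 490, 568 and 228, at -0.60 (SE 0.61) and at 0.52 without shscramble replicate 2 and shMETTL1 replicate 1. A single position held 751 of its 798 reads in shscramble replicate 2. Both groups overlapped for each gene, and 1 of the 3 targets, KLK2, had groups that did not overlap. Their median was -0.60 beside -0.04 over all gene IDs tested, and 0.50 with each gene's deepest position left out, which turns its direction.

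Genes of the amino acid response lay mostly above 0. The transcription factor ATF4 is translated when amino acids run short or the endoplasmic reticulum is stressed, and switches on amino acid synthesis, transport and tRNA charging. Of the 28 ATF4 targets listed, 8 had a symbol, and 6 of these were above 0 and 2 below (48.5% of all gene IDs were above 0 and 51.5% below). Groups did not overlap for 5 of the 8, all higher, where 7.64% of all gene IDs had groups apart in that direction. Of the 114 tested genes with a symbol, which the study had picked for a change, 19 were apart and higher. The median log2 fold change of the 8 was 0.55, and none passed the adjusted threshold. With each gene's deepest position left out the median was 0.061. Without shscramble replicate 2 and shMETTL1 replicate 1 all 8 were above 0 (50.3% of all gene IDs), with a median of 0.66.

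PSAT1, an enzyme of serine synthesis, had the smallest p among these targets. It had 476, 65 and 346 reads in shscramble and 1157, 951 and 1158 in shMETTL1. Its CPM were 96.8 ± 60.2 and 321 ± 55.0 (SD, n = 3), a log2 fold change of 1.72 (SE 0.52, edgeR unadjusted p = 0.0041). ASNS, which makes asparagine, had 1115, 628 and 817 reads against 2818, 1294 and 1392 and a log2 fold change of 0.78 (SE 0.37). SESN2, a stress-inducible inhibitor of growth signalling, had 99, 1 and 37 against 242, 239 and 208, at a larger 2.21 (SE 1.09). In PSAT1 and SESN2 the lowest library was shscramble replicate 2, and the groups did not overlap for any of the 3 genes. Without shscramble replicate 2 and shMETTL1 replicate 1 the log2 fold changes were 1.36 for PSAT1, 0.47 for ASNS and 1.70 for SESN2.

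The amino acid transporters were smaller or less even. SLC7A11, which imports cystine, had 135, 13 and 197 reads against 279, 278 and 339. SLC3A2, the shared heavy chain of SLC7A5 and SLC7A11, had 1427, 1164 and 1873 against 2334, 2680 and 1860, at 0.32 on the log2 scale (SE 0.31), and at -0.44 when its deepest position was left out. PCK2, mitochondrial phosphoenolpyruvate carboxykinase, had 2290, 3679 and 2358 against 2602, 3018 and 1961. Its log2 fold change was -0.56 (SE 0.36), 0.01 without shscramble replicate 2 and 0.07 without both libraries that stood apart. That of SLC7A5 was -0.41 (SE 0.42), and 0.01 when scaled by library size alone. Without both libraries SLC7A5 turned to 0.67 by reads (edgeR unadjusted p = 0.0021) and to 0.61 by distinct positions (edgeR adjusted p = 0.014). It was the only gene ID called in that last fit, with 1 of 5692 higher (0.0176%) and 0 lower (0.0%). The libraries left out there were chosen after seeing the data. With all 6 libraries, distinct positions gave SLC7A5 0.29 (edgeR adjusted p = 0.57), and DESeq2 on them called 0 gene IDs.

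The cytosolic aminoacyl-tRNA synthetases, which load tRNA with amino acids, lay above 0. Of 20 listed, 3 had a symbol, and for all 3 the shMETTL1 libraries were above the shscramble libraries without overlap (7.64% of all gene IDs). The same held for 19 of the 114 tested genes with a symbol. GARS, for glycine, had 1538, 940 and 1026 reads in shscramble and 2510, 2787 and 2440 in shMETTL1, which is a log2 fold change of 0.84 (SE 0.32). SARS, for serine, had 539, 263 and 492 against 1122, 1206 and 1005, at 1.11 (SE 0.39). WARS, for tryptophan, had 254, 208 and 388 against 882, 860 and 497, at 1.09 (SE 0.46). Their unadjusted p from edgeR were 0.019, 0.011 and 0.029, and none passed after adjustment. The 3 values were 1.01, 1.09 and 1.05 without shscramble replicate 2 and shMETTL1 replicate 1. Counted by distinct positions they were 0.34, 0.55 and 0.64. With the highest coverage of a gene in place of its reads, SARS was at 0.21. Of the 208 reads of WARS in shscramble replicate 2, 175 lay at 1 position.

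The promoters of these genes are shown because ATF4 and its C/EBP partners bind a short element with the letters TGATGNAA. That element was searched on both strands in RefSeq promoters (GRCh38.p14, 300 bases, from 250 before to 50 after a transcript start), a build other than the hg19 of the deposited files. It was found in 4 of the 18 promoters of the 8 ATF4 targets with a symbol and the 3 synthetases (22.2%), and in 1270 of 35116 promoters in all (3.62%). SLC7A11 had no promoter in the table. The ATF4 targets were listed as targets of a factor that binds this element, so their share was partly fixed by the list. It says nothing about the knockdown. Promoters of the same gene were counted separately, and some of them overlap. No match was found in any promoter of PSAT1, SESN2, PCK2, SLC7A5, SARS or WARS. Matches lay in ASNS, GARS, SLC3A2 and SLC1A5, each of which also had a promoter without one. The promoters of ASNS (chr7:97872359-97872658, minus strand) and GARS (chr7:30594628-30594927, plus strand) follow, with the match in capitals. A match is not a bound site.
ASNS: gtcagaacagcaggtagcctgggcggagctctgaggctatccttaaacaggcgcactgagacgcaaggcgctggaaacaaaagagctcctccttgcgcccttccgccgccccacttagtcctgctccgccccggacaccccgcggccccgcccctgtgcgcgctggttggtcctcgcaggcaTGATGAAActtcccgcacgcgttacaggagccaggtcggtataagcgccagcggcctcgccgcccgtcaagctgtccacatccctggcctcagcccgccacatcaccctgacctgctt
GARS: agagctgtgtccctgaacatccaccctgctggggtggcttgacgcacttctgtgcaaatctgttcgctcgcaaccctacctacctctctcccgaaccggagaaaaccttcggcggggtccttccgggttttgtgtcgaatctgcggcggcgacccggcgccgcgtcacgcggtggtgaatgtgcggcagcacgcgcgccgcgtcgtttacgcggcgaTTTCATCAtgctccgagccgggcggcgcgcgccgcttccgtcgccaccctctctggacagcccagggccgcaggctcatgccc

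Stress genes outside that list were also higher in single cases. HERPUD1, a membrane protein of the degradation of misfolded proteins from the endoplasmic reticulum, had the smallest p above 0 among genes with a symbol. It had 625, 397 and 632 reads in shscramble and 1456, 1799 and 1652 in shMETTL1. In shscramble replicate 2, 345 of the 397 lay at 1 position. The groups did not overlap, and the log2 fold change was 1.30 (SE 0.36, edgeR unadjusted p = 0.0022). XBP1, a transcription factor of the unfolded protein response, had 144, 397 and 260 against 530, 320 and 372 and overlapping groups. Its log2 fold change was 0.14 (SE 0.59), -0.25 with DESeq2's size factors and 0.78 without both libraries that stood apart. Of the 397 reads of XBP1 in shscramble replicate 2, 385 lay at 1 position.

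Of 23 p53 targets listed, 3 had a symbol, all above 0 in the main test (48.5% of all gene IDs). Among the 114 tested genes with a symbol, 61 were above 0. CDKN1A encodes p21, an inhibitor of cyclin-dependent kinases. It had 226, 101 and 252 reads in shscramble and 906, 601 and 710 in shMETTL1, with no overlap, and a log2 fold change of 1.69 (SE 0.48, edgeR unadjusted p = 0.0028). In shscramble replicate 2, 81 of its 101 reads lay at 1 position. PHLDA3, an inhibitor of AKT signalling, had 84, 1 and 66 against 186, 179 and 154, with 1.66 (SE 1.12), 1.14 without shscramble replicate 2 and shMETTL1 replicate 1 and -0.15 by the highest coverage. GDF15, a secreted stress cytokine, overlapped at 1463, 1065 and 1463 against 2526, 1884 and 1325. Its log2 fold change was 0.19 (SE 0.33), 0.11 without both libraries that stood apart, -0.06 with DESeq2's size factors and -0.30 with its deepest position left out.

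Genes of cell division gave no common direction by reads. STMN1, which destabilises microtubules, had 610, 1119 and 1133 reads against 621, 904 and 451, a log2 fold change of -0.93 (SE 0.44), and -0.40 without the libraries that stood apart. In shscramble replicate 2, 451 of its 1119 reads lay at 1 position. PRC1, a bundler of the midzone, was at 0.25 (SE 0.52), -0.24 by distinct positions and -0.02 without those libraries. ANLN, anillin of the contractile ring, was at 1.18 (SE 0.84), and -0.0017 by distinct positions. LIG1, a DNA ligase of replication, was at -0.26 (SE 0.99), 0.36 with limma and -0.87 without those libraries. The groups overlapped in CPM for all 4. By distinct positions all 4 were below 0, with STMN1 at -0.38 (SE 0.18) and LIG1 at -0.069 (SE 0.32), and none was called. Of 5608 gene IDs tested that way, 2822 were above 0.

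Among 4 genes of cholesterol synthesis, HMGCS1 was the exception. It encodes the cytosolic HMG-CoA synthase and had 98, 269 and 80 reads in shscramble and 492, 343 and 507 in shMETTL1. In shscramble replicate 2, 253 of the 269 reads lay at a single position, which had no read in shscramble replicate 3 or shMETTL1 replicate 2. By distinct positions HMGCS1 had 7, 8 and 13 against 57, 14 and 32, counts that move with library breadth. In CPM its groups overlapped. Scaled to the libraries' breadth, HMGCS1 rose by 1.15 on the log2 scale by distinct positions (SE 0.26, edgeR adjusted p = 0.044). DESeq2 on distinct positions called 0 gene IDs. The rise kept a like size in most fits where the call was lost. It was 0.98 without shMETTL1 replicate 1 (adjusted p = 0.58), 1.16 without both libraries that stood apart (0.56), 1.05 without shMETTL1 replicate 3 (0.15), 0.80 without shscramble replicate 1 (0.41) and 1.31 without shscramble replicate 3 (0.19). By reads it was at 1.08, and at 2.27 without both libraries. SQLE, squalene epoxidase, was at 1.47 (SE 0.83), MSMO1, a sterol oxidase, at 0.22 (SE 0.70), -0.01 with DESeq2's size factors and 0.41 without both libraries. NSDHL, a sterol dehydrogenase, was at -0.41 (SE 0.89), 0.12 when scaled by library size alone and 0.24 without both libraries. A single position held 216 of its 218 reads in shscramble replicate 2.

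Genes of smallest p on each side are shown together by library. Below 0 after KLK2 came FN1, the matrix protein fibronectin, with 1702, 1595 and 1531 reads in shscramble and 815, 1095 and 761 in shMETTL1, at a log2 fold change of -1.20 (SE 0.36, edgeR unadjusted p = 0.0040). LUZP2 was at -1.94 (SE 0.61), and -1.05 without shscramble replicate 2 and shMETTL1 replicate 1. In shscramble replicate 2, 851 of its 886 reads lay at 1 position. SESN3, of the sestrin family with SESN2, was at -1.33 (SE 0.43), with 1569, 1387 and 1125 reads against 1222, 580 and 361. DAZAP2 had 624, 386 and 471 against 237, 230 and 198, at -1.46 (SE 0.50). These groups did not overlap in CPM.

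NASP, a histone chaperone, LUC7L3, a splicing factor, and SIRT6, a deacylase of chromatin, were at -0.92, -0.80 and -1.52 (SEs 0.40, 0.36 and 0.70). NASP was at -0.55 and SIRT6 at -0.33 without shscramble replicate 2 and shMETTL1 replicate 1, and 63.8% of the reads of SIRT6 lay at 1 position. OOEP, a gene of the oocyte, had 34838, 38744 and 32907 reads against 21884, 30404 and 28061 and a log2 fold change of -0.76 (SE 0.27), and -0.22 without those libraries. A single position held 86.3% of its reads, and RefSeq places the ribosomal protein pseudogenes RPL39P3 and RPS6P8 and the antisense gene OOEP-AS1 within its span, so these reads are uncertain as OOEP transcript.

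Above 0, ID1, an inhibitor of helix-loop-helix transcription factors, had 256, 98 and 194 reads in shscramble and 560, 606 and 879 in shMETTL1. The groups did not overlap, and its log2 fold change was 1.69 (SE 0.51, edgeR unadjusted p = 0.0044). RELN, a secreted matrix glycoprotein, ROM1, a membrane protein of photoreceptors, and LRRC8D, a subunit of volume-regulated anion channels, were at 2.46, 3.14 and 1.97 with wider SEs of 1.05, 1.34 and 0.86. ROM1 had 2, 3 and 16 reads against 57, 127 and 36. For RELN the groups overlapped, with 69, 8 and 27 against 235, 383 and 51.

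**Figure D4:**
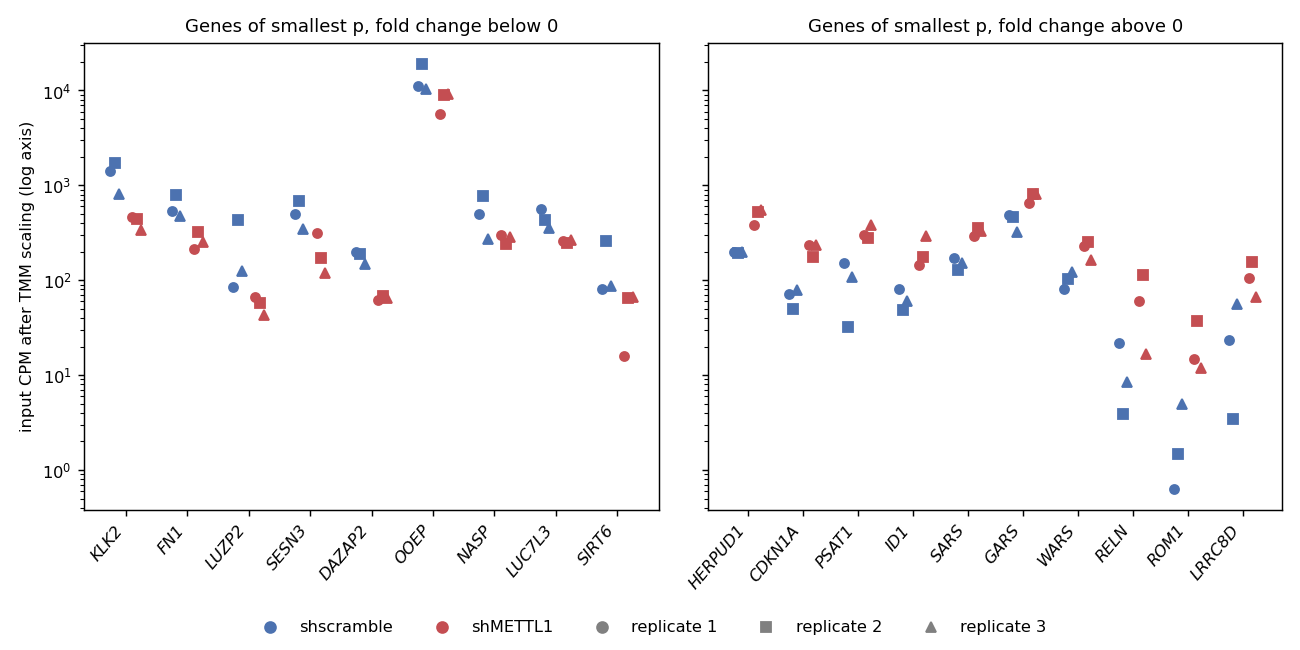
Input CPM after TMM scaling (vertical log axis) in each library for genes with a symbol of smallest p, 9 below 0 (left) and 10 above 0 (right). Blue is shscramble, red is shMETTL1 and symbols are replicates 1 to 3. For 17 of the 19 genes the groups do not overlap, with NASP and RELN the exceptions. Choosing genes by p in this comparison favours groups that stand apart. Over all gene IDs, groups did not overlap for 7.64% higher and 5.84% lower.

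Counting reads or positions changed the size of these differences more than their sign. All 19 genes kept their sign under every alternative in which they were tested. They were chosen by p in the main fit on these same libraries, which partly fixes a stable sign. ROM1 and SIRT6 were not tested by distinct positions. By distinct positions HERPUD1 was at 0.67, CDKN1A at 0.50, PSAT1 at 0.29 and FN1 at -0.53. Each was nearer 0 than by reads, where they were at 1.30, 1.69, 1.72 and -1.20. Gene IDs without a symbol included larger changes. ENSG00000116209 had 973, 991 and 792 reads in shscramble and 315, 54 and 175 in shMETTL1, which is a log2 fold change of -2.74 (SE 0.57), with an adjusted p of 0.75 in edgeR, 0.027 in DESeq2 and 0.026 by distinct positions. It was the only gene ID called by both alternatives. ENSG00000101255 had 167, 89 and 185 against 829, 912 and 645, at 2.17 (SE 0.48). Its adjusted p was 0.12 in DESeq2 on reads and 0.0097 in edgeR by distinct positions. DESeq2 on distinct positions called 0 gene IDs.

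**Figure D5:**
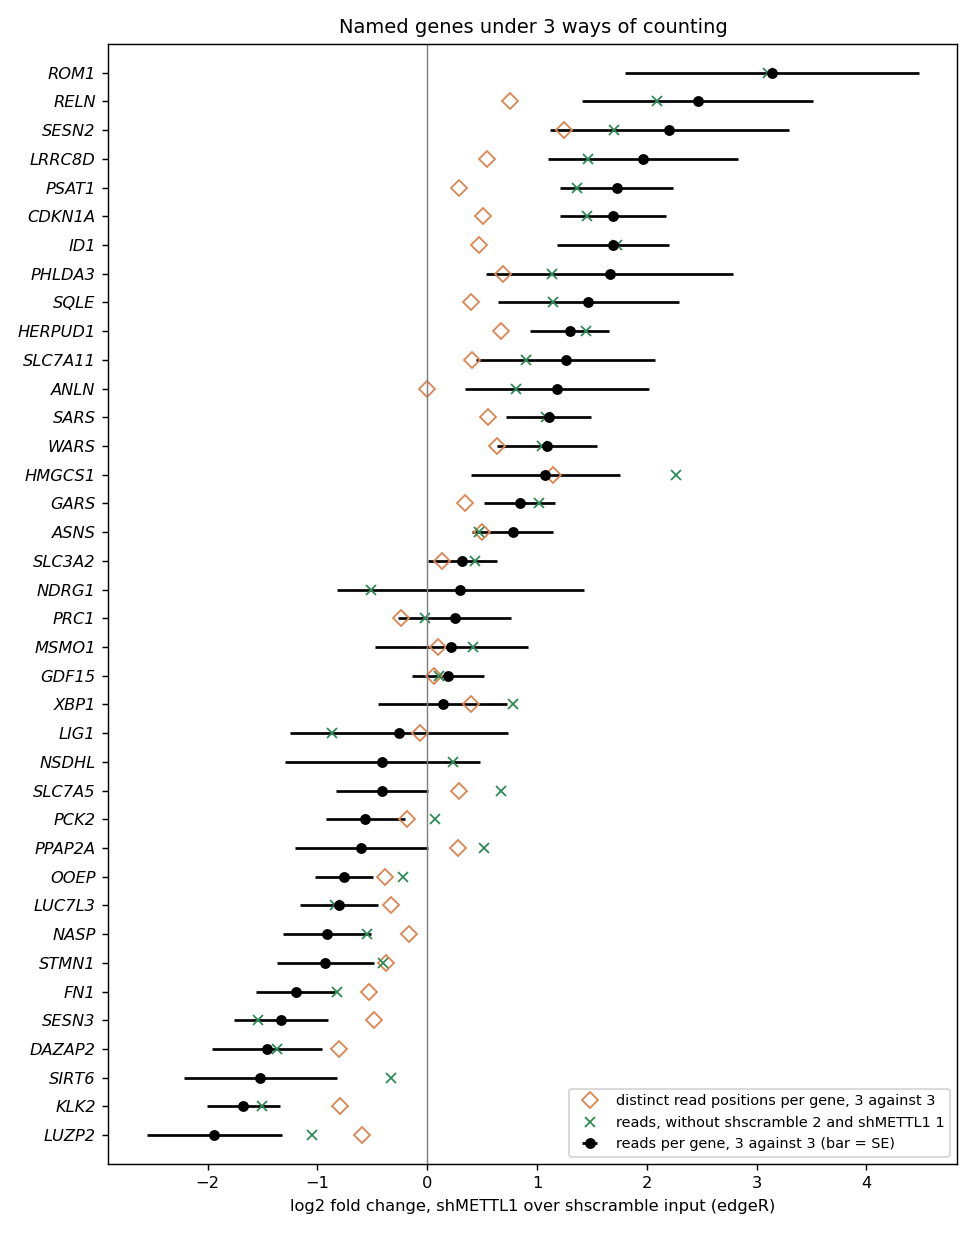
Log2 fold change of shMETTL1 over shscramble input (horizontal axis) for 38 genes chosen by p, list membership or depth of a position. Black points are reads with SEs, orange diamonds are distinct read positions, and green crosses are reads without shscramble replicate 2 and shMETTL1 replicate 1. KLK2 is at -1.68, -0.80 and -1.50.

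Over all 114 tested genes with a symbol, 61 were above 0 and 53 below, with a median of 0.11. Groups did not overlap for 19 higher and 14 lower genes, where 7.64% of all gene IDs were higher and 5.84% lower in that way. At an unadjusted p under 0.05, 12 were higher and 10 lower in edgeR (1.64% and 4.62% of all gene IDs), and none passed the adjusted threshold. The study's choice of these genes fixes part of these counts. ANKRD34A had too few reads to be tested.

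At the 115 positions through which these genes were named, the input libraries had a read at 30, 25 and 31 positions in shscramble and at 63, 36 and 41 in shMETTL1. All shMETTL1 libraries read more of them than any shscramble library. The fold over input that selected these positions contains the input value, so this is a description only.

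The knockdown difference in the input was also set against that in the AlkAniline-Seq libraries of the same cells, as an interaction over 12 libraries. Of the 114 genes with a symbol, none passed a test of a difference between library types (edgeR, smallest adjusted p = 0.45). For SARS the interaction was -0.22 on the log2 scale, for WARS 0.07, for HERPUD1 -0.05 and for CDKN1A -0.40. For LUC7L3 it was 1.76, for PCK2 1.43 and for PSAT1 -1.40. For KLK2 it was 1.21 (SE 0.45, edgeR unadjusted p = 0.014, adjusted p = 0.52), opposite in sign to its input log2 fold change of -1.68. The interaction is the AlkAniline-Seq change minus the input change. Genes picked by their p in the input therefore tend to an interaction of opposite sign. Such a sign does not show a rise of KLK2 in AlkAniline-Seq. Over all 12877 gene IDs 0 were higher (0.0%) and 1 lower (0.00777%), and at an unadjusted p under 0.05 683 were higher (5.3%) and 392 lower (3.04%).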

How the data were processed

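Read ends were counted by the authors, who deposited, for every position, counts, the coverage as a signal, a fraction (count divided by coverage) and its ratio to the same fraction in the input. Tools named in the submitters' processing notes were cutadapt 1.9.1, Bowtie2 2.2.4 and bedtools 2.24, with hg19 as build. What each did, and the gene models, is not given in the sources used here. Input counts at 842183 positions in 18569 gene IDs were summed per ID. Main tests used edgeR 4.0.16 under R 4.3.3 (quasi-likelihood after TMM, minimum count 10, minimum total 15, adjusted p threshold 0.05). DESeq2 1.42.0, limma 3.58.1 (log2 odds with 0.5 added) and counts of distinct positions were alternatives. Library values were compared by exact permutation. PCR duplicates could not be removed, so counting error is a lower limit.

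Symbols were tied by fold value to the study's table at a relative tolerance of 2e-08. Of the 115, 113 matched a current RefSeq symbol, and SARS and GARS were taken as SARS1 and GARS1. Named genes were the 10 of smallest p with a symbol in each direction, up to 4 members of each of 24 lists and those whose groups did not overlap, genes called by the fits, and genes of the deepest positions. Of the lists, 16 had no member with a symbol: m7G and cap factors, the study's misregulation genes, ribosomal proteins of both subunits, translation factors, heat shock chaperones, glycolysis, interferon, mitochondrial and noncoding genes, and the 6 marker lists. Members and lists were chosen with earlier results of these data known. The comparison of 2 libraries against 2 was added after seeing the data, and leaving out the extremes of breadth favours smaller breadth differences. A result that this rule covers is not reported here.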

Additional observations from a re-analysis of the deposited data

Results flagged for a closer look

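The knockdown difference of ENSG00000110777, a gene ID without a symbol here, differed between input and AlkAniline-Seq libraries, with an interaction of -7.58 on the log2 scale (standard error 1.22, edgeR adjusted p = 0.036). In the input it had 20, 15 and 19 reads in shscramble and 14, 14 and 27 in shMETTL1, where the groups overlapped. In AlkAniline-Seq it had 799, 223 and 5500 reads against 19, 10 and 15. With a replicate block the adjusted p passed for 0 gene IDs.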

How the results depend on the processing

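No input gene passed in edgeR with library size alone, with DESeq2's size factors, with a mean count of at least 50, with each gene's deepest position left out, with the highest coverage, with all 12 libraries, without any 1 library or without both libraries that stood apart, nor by limma or the methods' t-test. With DESeq2 35 gene IDs passed, by distinct positions 7, with no filter 95 and with a replicate block 2. The block counts, KLK2 included, rest on numbers that do not pair the libraries: same-numbered libraries had correlations of 0.053, 0.013 and -0.026 in their deviations from the group means. Distinct positions with DESeq2 gave 0. Leaving out 1 library gave 1 to 16 by distinct positions (without shscramble replicates 3 and 1) and 4 to 405 with DESeq2 (without shMETTL1 replicate 3 and shscramble replicate 3). Taken replicate by replicate, distinct positions gave 16, 5 and 1 without a shscramble library and 8, 12 and 11 without a shMETTL1 library, and DESeq2 gave 381, 74 and 405 and 48, 14 and 4. Without both libraries that stood apart they gave 1 and 79. For single positions, DESeq2 passed 97, a replicate block 6, and leaving out 1 library 0 to 162. For the share of read ends, edgeR with the coverage as an offset passed 19, and every other setting, a replicate block included, 0. For the interaction a replicate block passed 0. With a coefficient of variation of 0.81 between replicates, a count of 0 does not show that no gene changed.

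Scaling moved the median of all gene IDs from -0.04 to 0.22 with library size alone and -0.21 with DESeq2's size factors. Other models gave 0.22 with limma and 0.21 with a replicate block. Changes of genes are relative to that median.

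The difference in positions with a read was 31146 to 110216 without 1 library (lowest without shMETTL1 replicate 1) and 3032 without both. That in the percent of coverage over all positions, 0.705 with all libraries, was 0.440 to 0.892 points (lowest without shMETTL1 replicate 1) and 0.394 without both, and that at the 100 deepest positions -4.63 to -2.92.

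Of the alternatives for named genes, 716 kept the sign and side of the threshold, 5 crossed it and 50 changed sign. None of the 50 was among the 20 genes of smallest p, which were chosen by the main fit on these libraries. Leaving out 1 library, or both that stood apart, gave PCK2 -0.82 to 0.073, PRC1 -0.067 to 0.43, LIG1 -0.87 to 0.70, PPAP2A -1.03 to 0.54, NDRG1 -0.51 to 0.72, NSDHL -0.81 to 0.61, MSMO1 -0.30 to 0.49, XBP1 -0.26 to 0.90 and SLC7A5 -0.78 to 0.67. Without the deepest position the values of the genes that changed sign were SLC3A2 -0.44, GDF15 -0.30, PRC1 -0.99, LIG1 0.15, PPAP2A 0.91, NSDHL 1.03 and MSMO1 -0.59, and the medians of ATF4, mitosis and androgen receptor targets were 0.061, -0.99 and 0.50. With the highest coverage they were PHLDA3 -0.15, ANLN -0.065, LIG1 0.040, PPAP2A 0.0081 and NSDHL 0.42. In DESeq2 they were GDF15 -0.063, MSMO1 -0.010 and XBP1 -0.25, and with its size factors in edgeR GDF15 -0.063, MSMO1 -0.011 and XBP1 -0.25. By distinct positions they were ANLN -0.0017, PRC1 -0.24, PPAP2A 0.28 and SLC7A5 0.29, and with DESeq2 on those ANLN -0.022, PRC1 -0.22, PPAP2A 0.26 and SLC7A5 0.29. LIG1 was 0.36 in limma, 0.34 in the methods' t-test and 0.26 with a replicate block. With library size alone NSDHL was 0.12 and SLC7A5 0.015. The causes were not tested.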
